A study of Mus musculus with 2 samples.

Results

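The kinases and adaptors that act first after the T-cell receptor (TCR) were examined in CD4 and CD8 double-positive (DP) thymocytes of WT and *Cxxc1*-deficient mice. The group was defined by gene symbol and function, not by any measured value, and comprised the tyrosine kinases *Lck*, *Fyn*, *Csk*, *Zap70* and *Syk* and the adaptors *Lat*, *Lcp2*, *Themis* and *Grap2*. All 9 genes were among the 21041 genes of the expression table. mRNA-seq was performed on DP thymocytes from the thymus of juvenile mice, with 1 library per genotype. WT mice carried the floxed *Cxxc1* alleles without Cre (*Cxxc1* fl/fl), and the deficient mice, according to the study's methods, carried the same alleles with a Cre transgene driven by the human *CD2* promoter (*Cxxc1* fl/fl h*CD2*-Cre), which acts from early thymocytes onward and also in other immune cells. The floxed alleles were made in ES cells of strain 129 and backcrossed to C57BL/6. The genotype label of the deficient sample reads Cxxc1+/-, which differs from the genotype in the study's methods, and the samples were grouped by their titles. The number of mice behind each library is not given in the sources used here.

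When the TCR and its coreceptor meet peptide and MHC on thymic epithelium, the Src family kinase Lck, carried by CD4 and CD8, phosphorylates the CD3 chains. Zap70 docks there and phosphorylates the adaptors Lat and SLP-76 (the product of *Lcp2*), which assemble the complex that opens the calcium and Ras pathways. Mice without Zap70 have DP thymocytes that do not pass positive selection, and Lat and SLP-76 are needed earlier, for the pre-TCR signal that brings thymocytes to the DP stage.

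Each value below is a normalized expression value that behaved as reads per transcript length, so levels of different genes can be set side by side. A single read on 1 kb of transcript was worth 4.06 in the WT library and 4.70 in the *Cxxc1*-deficient library, which gave approximately 1464046 and 759980 reads on genes. The targeted gene, *Cxxc1*, had a value of 91 in WT cells against 50 in the *Cxxc1*-deficient ones (called deficient cells below), a ratio of 0.549 (95% interval 0.338 to 0.877). In deficient cells 12.0% of the olfactory receptor genes described next were at or above it. Genes with means from 50 to 100, the range of *Cxxc1*, were 1.45-fold lower at the median. Cre removes only the floxed exons, and a value over the whole gene does not show whether they are gone, so it cannot tell the genotype in the study's methods from the Cxxc1+/- of the label. As a measure of genes that are off in thymocytes, the 1122 olfactory receptor genes had medians of 22 in WT cells and 24 in deficient cells, with 95th percentiles of 54.0 and 57. The libraries differed in make-up beyond the targeted gene. All 8 DP markers listed (such as *Rag1* and *Cd8a*) were at least 2-fold lower in the *Cxxc1*-deficient library, as were 56.8% of all genes averaging 100 or more and 87.2% of those averaging 1000 or more, and their summed value was 35739 in WT cells against 8662 in deficient cells. Of 6 markers of the earlier double-negative (DN) stage, 5 were higher, as were 7493 of the 20125 genes above 0 in at least 1 library. The 6 had a summed value of 277 in WT cells against 438 in deficient cells, with *Il2ra* at 63 and 207 and *Ptcra* at 79 and 44. Of the 6, 4 had a mean under 50, in the range of olfactory receptor genes. The ratio intervals of *Kit*, *Dtx1*, *Hes1* and *Ptcra* included 1, and those of *Il2ra* (2.48 to 4.38) and *Cd44* (1.14 to 2.46) did not. The 5 Y chromosome genes examined were at 0 in WT cells and between 9 and 67 in deficient cells. Y-linked RNA was thus listed in the deficient library alone. The sex of the mice is not given in the sources used here. A difference in sex cannot be told apart from one in genotype in these libraries, and its part in the results was not tested. With 1 library per genotype there is no replicate check and no test of genotype. Intervals are 95% intervals for counting error only, they compare these 2 libraries, and bulk RNA cannot tell fewer cells of a type from less RNA per cell.

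As deposited, 8 of the 9 kinase and adaptor genes had a lower value in *Cxxc1*-deficient than in WT DP thymocytes, and only *Syk* had a higher value. The ratio was 0.5 or less, that is at least 2-fold lower, for 7 of the 9 genes, and none was at least 2-fold higher. Over all 20125 genes above 0 in at least 1 library, 17.4% were at least 2-fold lower, and 5.89% were 2-fold higher or more. The 9 genes had a median log2 ratio of -1.31, against -0.20 over all genes, and their summed value was 5587 in WT cells against 1709 in deficient cells. However, well-expressed genes in general had low ratios in this table. Among the 2472 well-expressed genes, those averaging 100 or more, to which 7 of the 9 belonged, the median log2 ratio was -1.08 and 1405 genes (56.8%) were at least 2-fold lower. Each gene is therefore also set beside genes of its own level below.

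**Figure D1:**
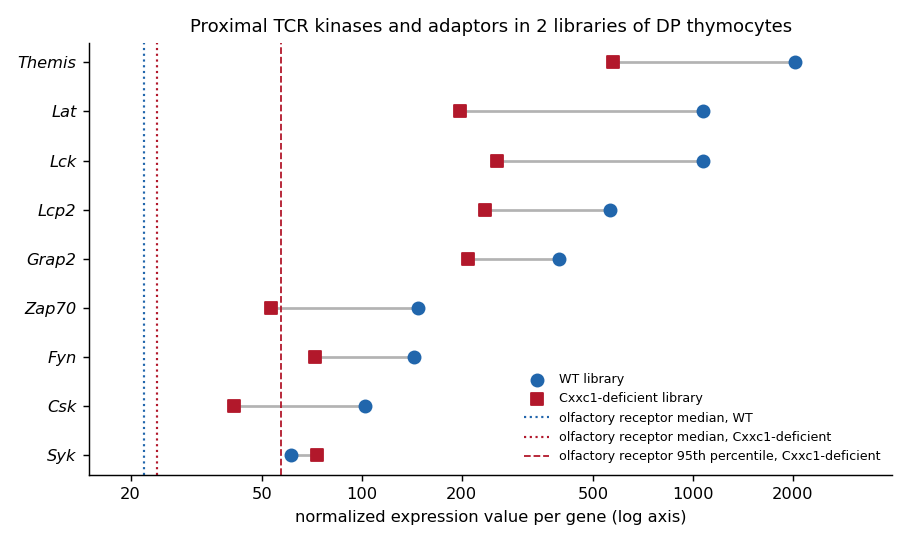
Normalized expression value (log axis) of each of the 9 genes in the WT library (circles) and the *Cxxc1*-deficient library (squares), 1 library per genotype, with the median of 1122 olfactory receptor genes in each library (dotted lines) and their 95th percentile in the *Cxxc1*-deficient library (dashed line). The squares lie to the left of the circles for 8 genes, *Syk* lies the other way, and *Zap70* and *Csk* lie below the dashed line in the *Cxxc1*-deficient library.

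The Src family kinases came first in the order of the pathway. *Lck*, which starts the phosphorylation of the TCR complex, had a value of 1073 in WT cells against 255 in deficient cells (mm9 chr4:129225588-129250885, minus strand). Its value was thus 4.21-fold lower (interval 3.46 to 5.19), a log2 ratio of -2.07. *Fyn*, the other Src family kinase of thymocytes, which can take over part of the role of Lck, had a value of 144 in WT cells against 72 in deficient cells (chr10:39088661-39285187, plus strand). This was a 2-fold lower value (interval 1.43 to 2.76), exactly at the 2-fold threshold. *Lck* remained the more abundant transcript of the pair in both libraries. The *Lck* to *Fyn* ratio was 7.45 in WT cells against 3.54 in deficient cells, a 2.10-fold change (interval 1.45 to 3.06), so *Lck* was lower relative to *Fyn*, beyond counting error. A ratio of 2 genes within a library does not depend on how the libraries were scaled, but it can depend on their levels. Genes in the ranges of mean value of *Lck* and *Fyn* had median log2 ratios of -1.43 and -1.03.

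*Csk*, which holds Lck and Fyn inactive by phosphorylating their C-terminal tyrosine, had a value of 102 in WT cells against 41 in deficient cells (chr9:57474454-57493460, minus strand). Its value was 2.49-fold lower (interval 1.54 to 4.13) and rested on approximately 69.1 and 24 reads. Subtracting the olfactory receptor median of each library made it 4.71-fold lower. In the *Cxxc1*-deficient library, *Csk* was the lowest of the 9 genes and 20.2% of the olfactory receptor genes were at or above its value, which puts it within the range of genes that are off. The *Lck* to *Csk* ratio was 10.5 in WT cells against 6.22 in deficient cells. The change of 1.69-fold had an interval from 1.02 to 2.80, and it became 0.967-fold, the other direction, when the olfactory receptor median of each library was subtracted first. The balance of *Lck* and *Csk* therefore has no settled direction in these libraries.

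The Syk family kinases had ratios on opposite sides of 1. *Zap70*, the kinase that binds the phosphorylated CD3 and zeta chains and then phosphorylates Lat and SLP-76, had a value of 148 in WT cells against 53 in deficient cells (chr1:36818695-36839663, plus strand). The value was 2.79-fold lower (interval 1.74 to 4.51), from approximately 80.0 and 24.7 reads, and 4.34-fold lower once the olfactory receptor median of each library was subtracted. No olfactory receptor gene reached the WT value of *Zap70*, whereas 9.09% of them were at or above its value in the *Cxxc1*-deficient library. *Zap70* thus went from a level above every olfactory receptor gene to one within their upper range.

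*Syk*, the relative of Zap70 that signals at the B-cell receptor and Fc receptors and, in early thymocytes, at the pre-TCR, had a value of 61 in WT cells against 73 in deficient cells (chr13:52678542-52744161, plus strand, annotated as *Sykb*). The ratio was 1.2, and its interval of 0.864 to 1.63 included 1, so in the values as deposited *Syk* did not differ beyond counting error. That does not hold under other scalings: with the libraries set to the same 75th percentile the ratio was 1.56 (interval 1.13 to 2.14), and with the same median over genes averaging 100 or more it was 2.39 (interval 1.72 to 3.26). *Syk* was above the 95th percentile of olfactory receptor genes in both libraries, with 2.05% and 0.802% of those genes at or above it. *Zap70* was the more abundant of the pair in WT, with a *Zap70* to *Syk* ratio of 2.43, and had the lower value in deficient cells, with a ratio of 0.726. The change of 3.34-fold (interval 1.94 to 5.76) was beyond counting error, and it was 5.46-fold after the same subtraction. Genes in the ranges of mean value of *Zap70* and *Syk* had median log2 ratios of -1.03 and -0.53. Cells that use *Syk* include B cells, macrophages and DN thymocytes. The 8 B-cell markers had a summed value of 252 in WT cells against 184 in deficient cells and ranged from 4 to 43 in the latter, and the 8 macrophage and dendritic cell markers in the table had sums of 303 and 294. Of the 6 DN markers, 5 were higher in the *Cxxc1*-deficient library, as given above. A mean under 50, in the range of olfactory receptor genes, was found for 4 of the 6 DN markers. The same held for 7 of the 8 genes in each of the other 2 lists, so the comparison of these lists rests on low values. The part of such cells in the value of *Syk* was not tested.

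The adaptors were examined next. *Lat*, the membrane scaffold whose tyrosines recruit phospholipase C and Grb2 once Zap70 has phosphorylated them, had a value of 1075 in WT cells against 198 in deficient cells (chr7:133507346-133513057, minus strand). At 5.43-fold lower (interval 4.05 to 7.43), a log2 ratio of -2.44, it had the lowest ratio of the 9 genes. *Lcp2*, which encodes SLP-76, the cytosolic scaffold that joins Lat through a Grb2-like adaptor, had a value of 562 in WT cells against 235 in deficient cells (chr11:33946920-33992295, plus strand). It was 2.39-fold lower (interval 2.02 to 2.85). The value of *Lat* was above that of *Lcp2* in WT cells and slightly below it in deficient cells. The *Lcp2* to *Lat* ratio was 0.523 in WT cells against 1.19 in deficient cells, and the WT ratio was 0.440 of the other (interval 0.314 to 0.617), a shift beyond counting error.

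*Grap2*, which encodes Gads, the Grb2-like adaptor that links SLP-76 to Lat, had a value of 393 in WT cells against 209 in deficient cells (chr15:80453935-80480989, plus strand). At 1.88-fold lower (interval 1.54 to 2.32) it had the mildest reduction of the 8 genes with a lower value and did not reach 2-fold. The *Lcp2* to *Grap2* ratio was 1.43 in WT cells against 1.12 in deficient cells. This 1.27-fold change had an interval of 0.979 to 1.65, so the partners SLP-76 and Gads were not told apart in their reduction. Among the 3 adaptors of the Lat complex, the order of ratios from lowest to highest was *Lat*, *Lcp2* and *Grap2*.

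*Themis*, a thymocyte adaptor that binds Grb2 and the phosphatase Shp1 and is required for positive selection, was the most abundant of the 9 transcripts in both libraries, with a value of 2029 in WT cells against 573 in deficient cells (chr10:28388166-28603624, plus strand). It was 3.54-fold lower (interval 3.24 to 3.87), the narrowest interval of the group, since it rested on approximately 2542 and 619 reads. Its level in WT was 1.89 times that of *Lat* (interval 1.68 to 2.12), the next gene in the order, and its level in *Cxxc1*-deficient cells was 2.25 times that of *Lck* (interval 1.85 to 2.74).

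The order of the levels was compared within each library. In WT the order was *Themis*, *Lat*, *Lck*, *Lcp2*, *Grap2*, *Zap70*, *Fyn*, *Csk* and *Syk*, and 6 of the 8 neighbouring pairs were separated beyond counting error. *Lat* and *Lck* were not, nor were *Zap70* and *Fyn*. In *Cxxc1*-deficient cells the order was *Themis*, *Lck*, *Lcp2*, *Grap2*, *Lat*, *Syk*, *Fyn*, *Zap70* and *Csk*, and only 2 of 8 neighbouring pairs were separated, *Themis* from *Lck* and *Lat* from *Syk*. Below *Themis*, deficient cells thus had a middle group with values from 198 to 255 and a low group from 41 to 73. In both libraries the receptor-proximal kinases *Zap70*, *Fyn*, *Csk* and *Syk* were below every adaptor.

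In this table the ratio depended on how well a gene was expressed, and each gene was set beside all genes in the same range of mean value over both libraries. *Syk* and *Csk* had means from 50 to 100, where 20% of 3657 genes were at least 2-fold lower and the median log2 ratio was -0.53. The log2 ratio of *Csk* was -1.31, and 8.72% of these genes had a ratio as low. That of *Syk* was 0.26, and 7.93% of these genes had a ratio as high. Both therefore lay in the outer part of their range, on opposite sides.

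*Fyn* and *Zap70* had means from 100 to 300, where 52.8% of 2066 genes were at least 2-fold lower and the median log2 ratio was -1.03. *Fyn*, with a log2 ratio of -1, lay at that median. *Zap70*, with -1.48, lay below it, and 18.9% of these genes had a ratio as low. With a mean of 100.5, *Zap70* was just inside the range.

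*Lck*, *Lat*, *Lcp2* and *Grap2* had means from 300 to 1000, where 76.6% of 367 genes were at least 2-fold lower and the median log2 ratio was -1.43. A ratio as low as that of *Lat* was found for 14 of the 367 genes (3.81%), and one as low as that of *Lck* for 46 (12.5%). *Lcp2* lay near the median, with 61.9% of the genes as low. *Grap2* lay above it, with 19.9% of the genes as high, and its mean of 301 was just inside the range. *Themis* had a mean above 1000, where, as given above, 87.2% of 39 genes were at least 2-fold lower and the median log2 ratio was -1.81. Its log2 ratio of -1.82 was that of a typical gene of its level. The count of 7 of 9 genes at least 2-fold lower is to be read against these shares, which were far above that over all genes for 7 of the 9, and the genes that stood off their level most were *Lat* on the low side (1.01 below the median log2 ratio of its range) and *Syk* on the high side (0.79 above).

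**Figure D2:**
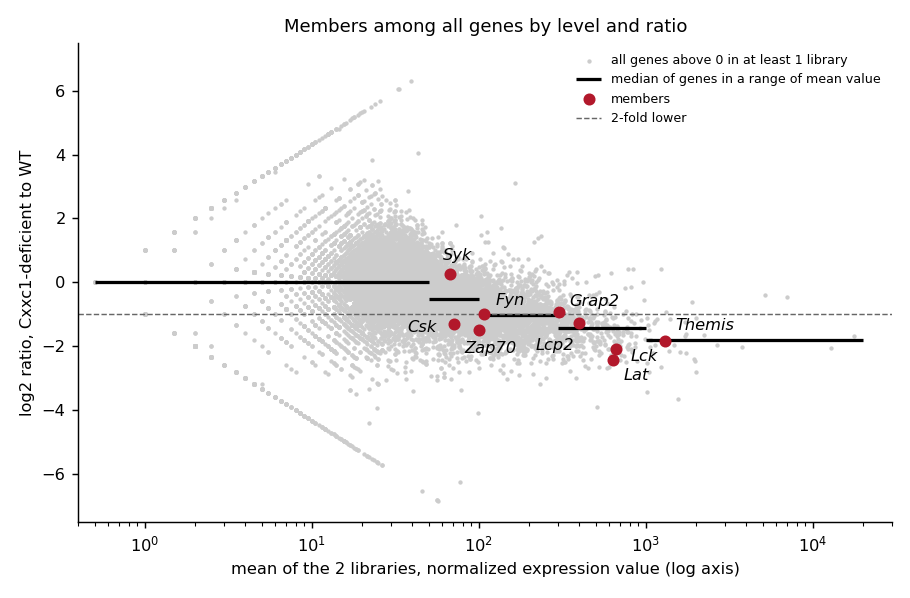
Log2 ratio of *Cxxc1*-deficient to WT against the mean of both libraries (log axis) for all 20125 genes above 0 in at least 1 library (grey), with the 9 genes in red, the median of each of 5 ranges of mean value (black bars) and the 2-fold line (dashed). The black bars step down from 0 to -1.81 as the mean increases, *Themis* and *Fyn* lie on them, *Lat*, *Lck*, *Zap70* and *Csk* lie below and *Syk*, *Grap2* and *Lcp2* lie above.

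The genes with the most similar pair of values were looked up for the 7 of the 9 that averaged 100 or more, as the Euclidean distance of the log2 values over the 2 libraries. *Clk2*, a kinase of splicing factors, had the same values as *Zap70* (distance 0). *Ddx5*, an RNA helicase, was closest to *Lck*, with 1023 in WT cells against 253 in deficient cells (distance 0.07), and *Chmp1b* was next (0.14). For the adaptors, the closest genes were *Atl2* and *Cnbp* to *Lat* (0.09 and 0.13), *Ccnl1* and *Ewsr1* to *Lcp2* (0.04 for both), *Ywhae* and *Rmnd5a* to *Themis* (0.22 for both) and *Hnrnpul1* and *Irf2bp2* to *Grap2* (0.02 and 0.03). *Gtpbp1* and *Sde2* were closest to *Fyn* (0.01 and 0.02) and *Stk11* was second for *Zap70* (0.03). With 2 libraries, closeness describes only a level and a ratio.

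Other genes of the pathway were then examined by role, in 6 lists holding 66 genes. Of these, 35 were at least 2-fold lower in *Cxxc1*-deficient cells and 1 at least 2-fold higher, with a median log2 ratio of -1.07. Among the 38 of them that averaged 100 or more, all 38 were lower and 28 were at least 2-fold lower, to be read against 56.8% of all genes of that level. The 9 genes of the receptor complex and its coreceptors had the lowest median log2 ratio, -2.20, and 8 of the 9 were at least 2-fold lower. All but *Cd2* averaged more than 300. At least 2-fold lower were 76.6% of all genes with means from 300 to 1000 and 87.2% of those above, so this count was near the share of their level. The median log2 ratios of these 2 ranges were -1.43 and -1.81. *Cd3d* was at 680 in WT cells against 85 in deficient cells, 8-fold lower (interval 5.22 to 12.7). *Cd8a*, the coreceptor chain that carries Lck, was at 3503 and 507, 6.91-fold lower (interval 6.17 to 7.77), and its partner *Cd8b1* at 2855 and 611, 4.67-fold lower. *Cd4*, the other carrier of Lck, was at 2728 and 1257, 2.17-fold lower (interval 2.0 to 2.35). *Cd3e* was at 2304 and 1490, 1.55-fold lower (interval 1.38 to 1.74), and did not reach 2-fold.

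Of 5 Tec family kinases, which Lck activates and which act on phospholipase C, 3 were at least 2-fold lower, against 17.4% of all genes. The share was 20% of genes with means from 50 to 100 and 52.8% of those from 100 to 300. A list of 5 genes is too small to be read against these shares. Of the 7 other Src family kinases, all had a mean under 50, in the range of olfactory receptor genes, and 1 was at least 2-fold lower and 1 was 2-fold higher or more. The latter was *Fgr*, a Src kinase of myeloid cells, at 28 in WT cells against 68 in deficient cells, which was named after its value was seen. In deficient cells *Fgr* was thus close to *Fyn*, at 72.

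Of 22 other proximal adaptors, 12 were at least 2-fold lower and none was 2-fold higher, with a median log2 ratio of -1.08. Among the 14 averaging 100 or more, 9 were at least 2-fold lower, a share near the 56.8% of all genes of that level. *Grap*, a Grb2 relative, was at 743 in WT cells against 121 in deficient cells, 6.14-fold lower (interval 4.42 to 8.60). *Sla*, which encodes SLAP, an adaptor that lowers the TCR level of DP thymocytes, was at 1292 and 231, 5.59-fold lower (interval 4.97 to 6.30), and *Trat1*, the TCR-interacting molecule TRIM, at 575 and 110, 5.23-fold lower (interval 4.16 to 6.68). Their reductions were of the size of that of *Lat*. At the other end, *Lax1* was at 155 and 118 and *Sh2d2a*, an adaptor of Lck, at 179 and 160, and both intervals included no change.

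Of 9 immediate effectors, all 9 were lower and 4 at least 2-fold lower. These 4 were among 8 that averaged 100 or more, a share no larger than that of all genes of that level (56.8%). *Was*, the actin regulator that SLP-76 recruits through Nck, was at 203 in WT cells against 34 in deficient cells, 5.97-fold lower (interval 3.53 to 11.3). *Pik3r1*, a regulatory subunit of PI3K, was 3.29-fold lower and *Rasgrp1*, the Ras activator downstream of Lat, was 2.71-fold lower, from 1350 to 498 (interval 2.46 to 2.99). The Ras exchange factors *Sos1* and *Sos2* were 1.21-fold and 1.30-fold lower. Of 14 genes listed as negative regulators, 7 were at least 2-fold lower and none was 2-fold higher. The 7 included all 6 that averaged 100 or more, to be read against 56.8% of all genes of that level. *Ptprc*, the most abundant gene counted in this list, was at 4239 and 1101, 3.85-fold lower (interval 3.63 to 4.09). It encodes CD45, the phosphatase that removes the inhibitory phosphate from Lck and so opposes Csk, which is not a negative role. The ubiquitin ligase *Cbl*, which acts on Zap70, was 2.47-fold lower, and the restraining receptors *Cd6* and *Cd5* and the phosphatase *Ptpn22*, which acts on Lck, were 2.42-fold, 2.12-fold and 2.09-fold lower. Of the 7 other negative regulators, 3 had lower values short of 2-fold, 1 was equal and 3 had higher values. The last were *Ubash3b* (31 and 49, ratio interval 1.06 to 2.31), *Dok1* (27 and 52) and *Ptprj* (29 and 39), named after their values were seen.

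**Figure D3:**
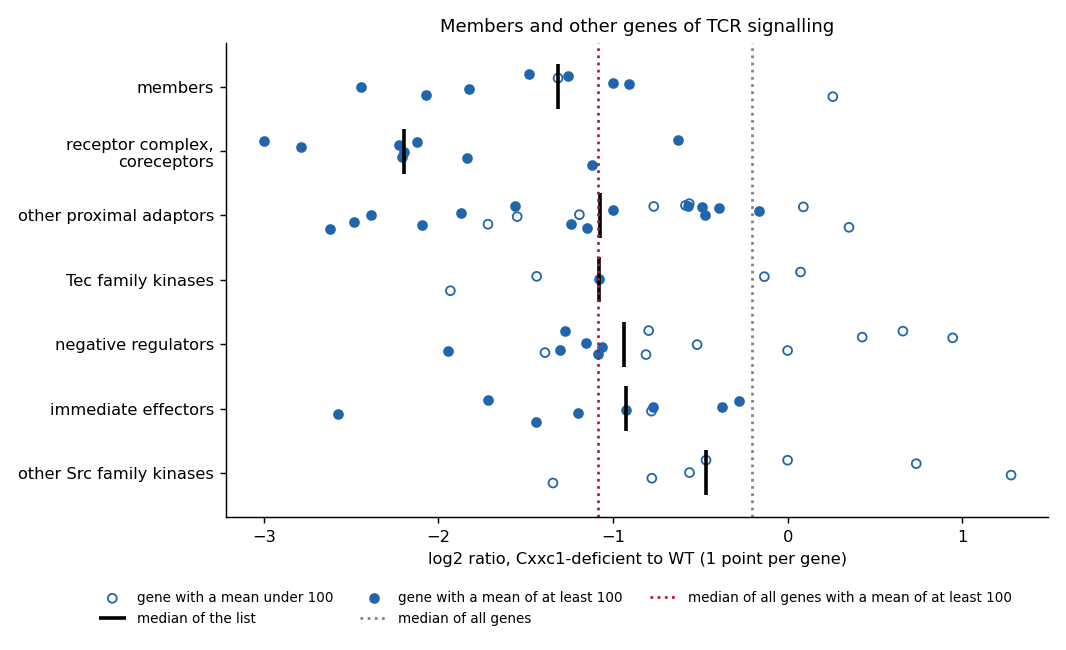
Log2 ratio of *Cxxc1*-deficient to WT for the 9 genes (members, top row) and the 66 other genes of TCR signalling in 6 lists, 1 point per gene, filled where the mean of both libraries was 100 or more, with the median of each list (black bars), of all genes (grey dotted line, -0.20) and of genes averaging 100 or more (red dotted line, -1.08). The receptor complex has the lowest median, -2.20, the 9 genes have -1.31, and all filled points lie below 0.

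Promoter sequence was examined because CXXC1 is known to bind unmethylated CpG dinucleotides and to direct the methyltransferase Setd1, which places H3K4me3, to CpG islands. In DP thymocytes, however, the study found only a small share of CXXC1 sites at CpG islands, although the signal was enriched at island centres. It reported CXXC1 at upstream or gene body enhancers of *Zap70* and *Lck*. RefSeq promoters on GRCm38.p6, from 250 bases before to 50 bases after a start site, were matched for all 9 genes, which have 15 start sites in that table. The genes were far apart in CpG content. Among 32851 promoters the median was 7 CpG (quartiles 3 and 20). *Fyn* and the first start of *Syk* had 31 CpG, a number that 10.6% of all promoters reached, and the second start of *Csk* had 24. *Lat* had 10, the 3 starts of *Zap70* had 5 to 9 and the 2 starts of *Lck* had 7 and 5. *Grap2* had 2, the overlapping windows of *Themis* had 1 and 2, and *Lcp2* had none, as did 5.43% of all promoters.

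The upstream 250 bases of 4 of these promoters are shown, with each CpG in capitals, as examples of CpG-rich (*Fyn*, *Syk*) and CpG-poor (*Lck*, *Lcp2*) promoters. They lie at chr10:39369549-39369798 (*Fyn*, plus strand), chr13:52583187-52583436 (*Syk*, first start, plus strand), chr4:129558373-129558622 (*Lck*, the downstream of its 2 starts, minus strand) and chr11:34046678-34046927 (*Lcp2*, plus strand) on GRCm38.p6 and are written 5′ to 3′ on the strand of the gene.
Fyn: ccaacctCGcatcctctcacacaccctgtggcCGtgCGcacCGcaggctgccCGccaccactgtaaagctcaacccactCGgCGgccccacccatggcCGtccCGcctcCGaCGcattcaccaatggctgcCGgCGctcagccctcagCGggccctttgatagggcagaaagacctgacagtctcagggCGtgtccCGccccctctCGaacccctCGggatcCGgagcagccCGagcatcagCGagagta
Syk: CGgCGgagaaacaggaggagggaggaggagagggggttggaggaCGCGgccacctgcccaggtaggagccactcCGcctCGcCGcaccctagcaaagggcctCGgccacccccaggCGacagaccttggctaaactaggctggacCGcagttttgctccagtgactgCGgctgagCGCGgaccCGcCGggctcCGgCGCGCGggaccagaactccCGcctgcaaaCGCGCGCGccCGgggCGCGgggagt
Lck: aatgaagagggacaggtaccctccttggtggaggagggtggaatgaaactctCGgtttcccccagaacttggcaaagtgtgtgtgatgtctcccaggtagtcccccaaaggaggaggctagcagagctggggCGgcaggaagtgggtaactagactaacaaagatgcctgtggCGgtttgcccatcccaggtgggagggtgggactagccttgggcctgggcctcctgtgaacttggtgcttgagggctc
Lcp2: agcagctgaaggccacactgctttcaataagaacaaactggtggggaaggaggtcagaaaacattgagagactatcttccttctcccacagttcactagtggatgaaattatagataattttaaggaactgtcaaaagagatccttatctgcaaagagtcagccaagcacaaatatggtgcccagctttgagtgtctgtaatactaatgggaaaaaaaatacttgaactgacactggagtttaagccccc
The *Syk* and *Fyn* stretches hold 27 and 21 CpG, the *Lck* stretch 3 and the *Lcp2* stretch 0. Which of several starts was used in DP thymocytes cannot be read from 1 value per gene, and the relation of CpG content to the ratios was not tested. *Syk* and *Fyn*, each with a start of 31 CpG, had ratios of 1.2 and 0.5, and *Lat*, with 10 CpG, had the lowest, 0.184. *Lck*, with starts of 7 and 5 CpG, had 0.238, and *Themis*, with 1 and 2, had 0.282. *Zap70*, with starts of 8, 5 and 9 CpG, had 0.358. *Grap2*, with 2 CpG, had 0.532. *Csk*, with starts of 9 and 24 CpG, had 0.402, and *Lcp2*, with no CpG in its window, had 0.418.

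**Figure D4:**
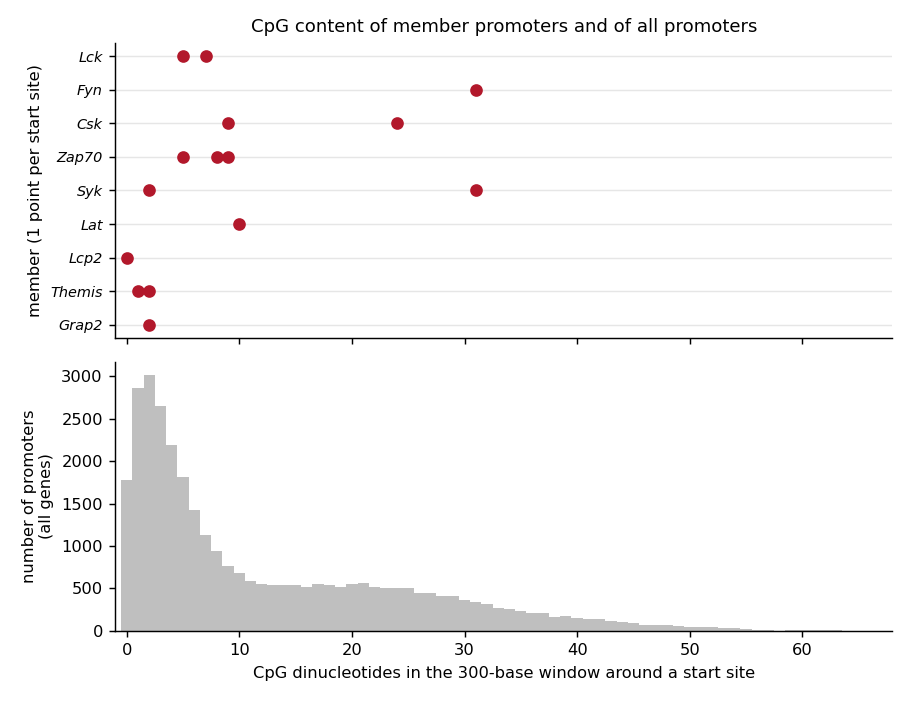
CpG dinucleotides in the 300-base window around each of 15 RefSeq start sites of the 9 genes (top, 1 point per start site) above the number of all 32851 promoters with each CpG count (bottom). *Fyn*, 1 start of *Syk* and 1 start of *Csk* lie at 24 or more CpG, and the other starts lie at 10 or fewer.

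Short motifs were searched on both strands of the same windows. The ETS core GGAAG was found in 11 of the 15 windows, against 71.4% of all promoters, and the E-box CANNTG in all 15, against 72.3%, so both were common everywhere. The Runx core TGTGGT was found in 3 of the 15 windows and 16.8% of all promoters, and the GC box GGGCGG in 4 of the 15 and 35.7%. The TATA box TATAAA was in none of the 15 windows and in 13.6% of all promoters.

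The size of every reduction depended on how the libraries were scaled, while the order of the 9 ratios does not change with scaling. The libraries as deposited had the same median, 36, but sums of 1551994 in WT cells against 981677 in deficient cells. Setting both libraries to the same 75th percentile, to the same sum after leaving out the 100 highest genes, or to the same median over well-expressed genes (mean of 100 or more) multiplied the deficient values by 1.31, 1.48 and 2, and the median over all genes moved up by 0.39, 0.56 and 1 on the log2 scale. With these, 4, 3 and 2 of the 9 genes were at least 2-fold lower. *Lck* and *Lat* were at least 2-fold lower under every setting tried, from 2.11 to 4.55-fold for *Lck* and from 2.72 to 6.05-fold for *Lat*. *Syk* was higher in *Cxxc1*-deficient cells under every setting, with ratios from 1.17 to 2.39. When well-expressed genes were given the same median, *Fyn* had a ratio of 0.998 and *Grap2* turned to 1.06, the single reversal among the 9 genes.

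**Figure D5:**
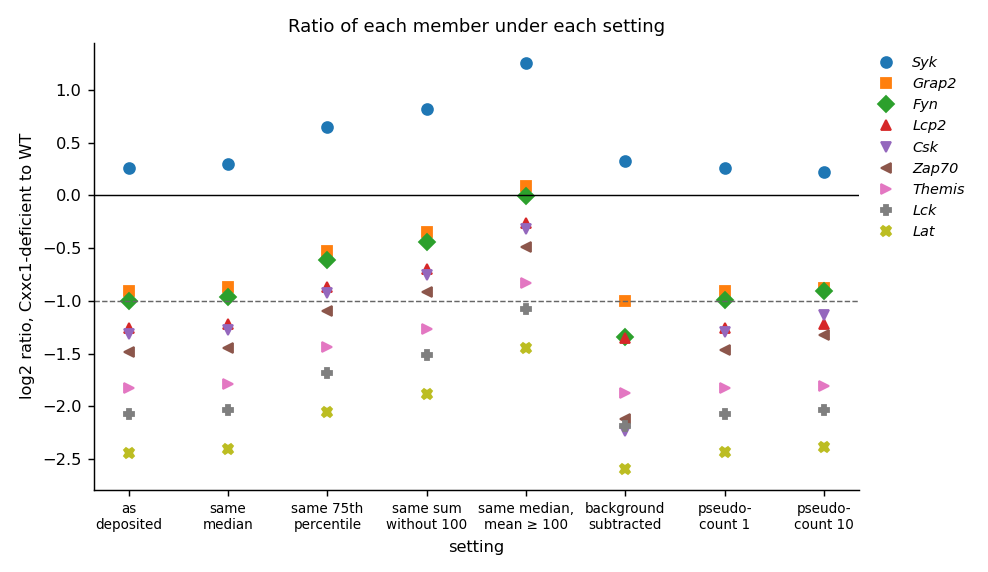
Log2 ratio of *Cxxc1*-deficient to WT of each of the 9 genes under 8 settings: as deposited, 4 other scalings of the libraries, subtraction of the olfactory receptor median, and pseudocounts of 1 and 10. *Lat* and *Lck* lie below the dashed 2-fold line throughout, *Syk* lies above 0 throughout, and *Fyn* and *Grap2* reach 0 when genes averaging 100 or more share a median.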

How the data were processed

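The authors extracted RNA from DP thymocytes with TRIzol, prepared NEBNext mRNA libraries, sequenced 50-base reads on an Illumina HiSeq and kept uniquely mapped reads. The submitters' processing notes name CASAVA 1.8.2, Bowtie 1.0.1, Partek and mm9. In the deposited table each gene has 1 score per library, a normalized value that the authors rounded to whole numbers. The unit, the annotation and the use of strand are not given in the sources used here, and without strand reads of overlapping antisense genes cannot be told apart. *Lcp2* shares 88 of 4459 exonic bases with an opposite-strand gene and *Themis* 153 of 9031. Unique mapping lowers genes with near-identical copies.

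The value of 1 read was found from the deposited values and GENCODE vM1 lengths (NCBIM37, the build of mm9). With it, 79.6% of 1422 short genes with 1 transcript (300 to 1000 bases, values under 120) came out as whole reads in WT, against 20.1% allowed by rounding alone, and 78.7% of 1418 in *Cxxc1*-deficient cells, against 17.3%. A read number counted as whole where the rounding of the value allowed it. Reads of a gene were taken on its longest transcript and are approximate. Intervals of ratios are exact binomial (Clopper-Pearson), those of pairs and neighbours use the normal approximation on the log scale, and all cover counting error only. The script was tested on simulated data.

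Ratios are *Cxxc1*-deficient to WT, with values raised to at least 1, and the threshold was 2-fold, as in the study. With 1 library per genotype no test was run. Genes, lists and settings were chosen with earlier results of these data known. Named genes were the 9 genes, up to 3 with the lowest and 2 with the highest ratio among genes of each pathway list with a mean of at least 100, and the 2 genes closest in log2 values to each of the 9 with such a mean. A gene that this rule selects is not reported. Marker lists for mature single-positive thymocytes, NK and innate lymphoid cells, erythroid cells and thymic epithelium had sums of 348, 160, 75 and 171 in WT and 298, 141, 65 and 151 in *Cxxc1*-deficient cells. Alternatives were 4 scalings, background subtraction, 2 pseudocounts, 2 thresholds and a filter on a mean of 50. Promoters came from RefSeq on GRCm38.p6, whose coordinates are not those of mm9. Calculations used scipy 1.17.1, numpy 2.4.6 and pandas 2.3.3 in Python 3.11.15, with matplotlib 3.10.9 for figures.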

Additional observations from a re-analysis of the deposited data

How the results depend on the processing

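With the libraries set to the same 75th percentile, the same sum after leaving out the 100 highest genes, or the same median over well-expressed genes (mean of 100 or more), the count of kinase and adaptor genes at least 2-fold lower was 4, 3 and 2 in place of 7, and the count among the 66 other pathway genes was 22, 17 and 11 in place of 35. The 9 genes had a median log2 ratio of -0.75 with the second and -0.32 with the third of these scalings, in place of -1.31. The last scaling also turned *Grap2* to a ratio of 1.06. These shifts follow from the scaling factor itself. With a threshold of 3-fold, 3 of the 9 genes were lower. Subtracting the olfactory receptor median turned the change of the *Lck* to *Csk* ratio to 0.967-fold, since 24 of the 41 units of *Csk* were removed in deficient cells, and it raised the count of the 9 genes to 8. Of 63 ratios of single genes under other settings, 42 moved by less than their counting error, 20 by more and 1 reversed. Intervals recomputed on shorter transcripts, an alternative chosen after seeing the data, ran from 1.29 to 3.24 for *Fyn*, 1.47 to 5.66 for *Zap70* and 3.11 to 4.06 for *Themis*. The ranges of mean value were also chosen after seeing the data. No paired analysis was possible because only 1 library represents each genotype. Depth limits *Csk* and *Zap70* most, with approximately 24 and 24.7 reads in the *Cxxc1*-deficient library.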
